A study of Mus musculus with 9 samples.

Results

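Transcripts of 5 metabotropic glutamate receptor genes (Grm2, Grm3, Grm4, Grm5 and Grm8) and of 4 genes for proteins that bind such receptors (Homer1, Homer2, Homer3 and Pick1) were measured in mouse brain. The 9 genes were taken by name, and every probe set annotated to 1 of them and to no other gene was included, which gave 18 of 45037 probe sets for 9 of 18193 genes with such a probe set. A further probe set carries the names of both Grm2 and the noncoding gene Gm28111 and was left out of all counts. Its log2 intensity lay between 2.69 and 2.99 on all arrays (F-test over the strains, limma adjusted p = 0.991).

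Each sample was a pool of 10 brain hemispheres without cerebellum from untreated adult males aged 11 ± 1 weeks. The 3 strains were B6By.C.132.54, BALB/cJ and C57BL/6ByJ, each with 3 arrays that stand for 30 mice, so that 90 mice entered the study. By its name B6By.C.132.54 carries BALB/c donor DNA on the C57BL/6By background, and its extent in the genome was not used here. A pool averages over mice and over all cells of the hemisphere, so fewer cells of a type and less RNA per cell cannot be told apart.

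Metabotropic glutamate receptors are G protein-coupled receptors that tune synapses more slowly than the ion channel receptors for glutamate. Grm5 belongs to group I, which acts through Gq proteins, phospholipase C and calcium release from stores. Grm2 and Grm3 form group II, and Grm4 and Grm8 belong to group III; both groups act through Gi and Go proteins, lower cyclic AMP and often sit on nerve terminals. Homer proteins bind the tail of group I receptors and tie them to Shank scaffolds and to calcium channels of internal stores. The short Homer1a form, which is induced by neuronal activity, lacks the domain that links Homer proteins to each other and so uncouples these complexes. Pick1 is a PDZ and BAR domain protein that binds protein kinase C alpha, AMPA receptor subunits and the group III receptor mGluR7.

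Levels are given as log2 of the deposited signal intensity. The median of all probe sets was 3.97 over the 9 arrays; signals near or below it are close to background, and 16 of the 18 probe sets had a mean at or above it. The exceptions were Homer1 1425671_at (mean 3.11) and Pick1 1454530_at (mean 3.20). Levels of different probe sets are not set against each other, since probes differ in brightness. Differences were tested with limma over all 45037 probe sets, with Benjamini-Hochberg adjusted p-values and a threshold of 0.05. Errors of levels are SD over 3 arrays, and those of differences are standard errors (SE).

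No receptor, Homer or Pick1 probe set passed the test between any pair of strains. Between BALB/cJ and C57BL/6ByJ 0 of 18 were called, where 1.43% of all probe sets were called. Between B6By.C.132.54 and C57BL/6ByJ 0 of 18 were called, where 0% of all were. Between B6By.C.132.54 and BALB/cJ, which shares its BALB/cJ arrays with the first of these comparisons, 0 of 18 were called, where 1.28% of all were. The F-test over the 3 strains called 0 of 18, where 1.28% of all were called. At these background shares a count of 0 among 18 probe sets is near what the whole table gives. The lowest adjusted p among the 18 was 0.384 for BALB/cJ against C57BL/6ByJ, 0.915 for B6By.C.132.54 against C57BL/6ByJ and 0.627 for B6By.C.132.54 against BALB/cJ. With the replicate number as a block, the count was also 0 in all 3 comparisons, where 2.12%, 0% and 1.85% of all probe sets were called, and the lowest adjusted p were 0.0557, 0.658 and 0.230.

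Each of the 54 differences (18 probe sets in 3 comparisons) had a 95% interval that lay inside a 2-fold change either way, and 47 lay inside a 1.5-fold change. These intervals are not adjusted for the number of probe sets, so they do not mark the smallest difference that would be called. All intervals and SE, here and below, come from the fit without the replicate block. The furthest bound was 1.96-fold, for Homer1 1436387_at in BALB/cJ against C57BL/6ByJ. The median width on either side of a difference was 0.254 on the log2 scale. Of the 54 intervals 52 held 0, and both exceptions belonged to Homer2 1457671_at.

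**Figure D1:**
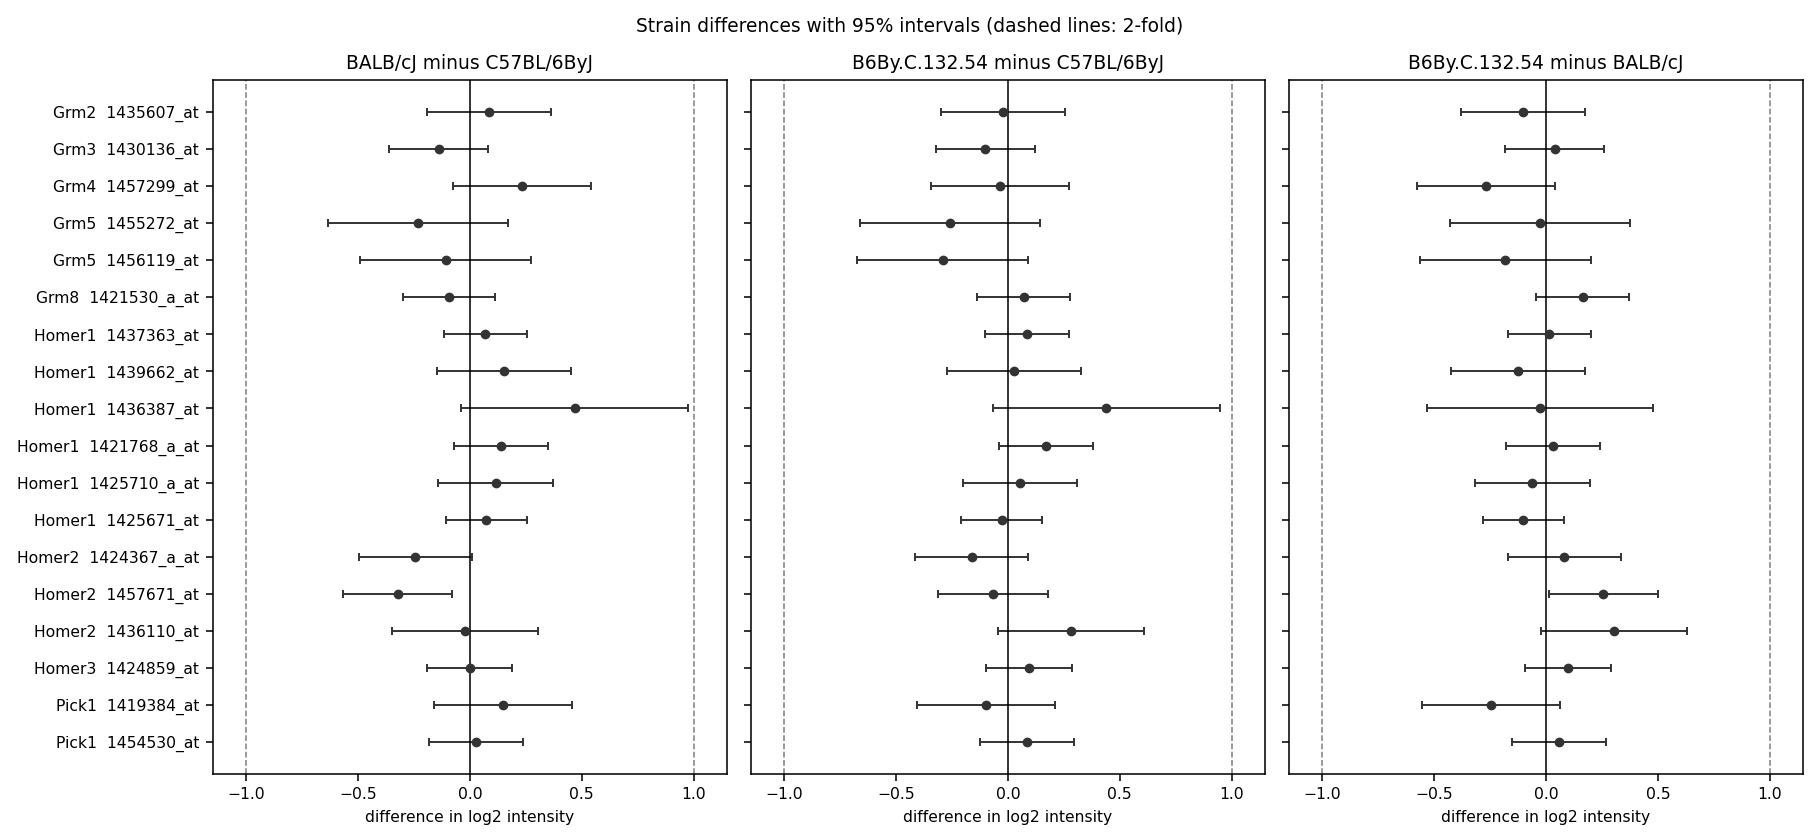
Difference in log2 intensity (horizontal axis) of the 18 probe sets in the 3 strain comparisons, as points with 95% intervals. The intervals come from limma without the replicate block. All 54 intervals lie inside the dashed lines at a 2-fold difference, and 52 of them cross 0.

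Grm5, the group I receptor of the forebrain that couples to calcium release, was read by 2 probe sets. The brighter, 1455272_at, measured 8.50, 7.94 and 7.75 in B6By.C.132.54, 8.20, 7.99 and 8.08 in BALB/cJ, and 8.59, 8.29 and 8.08 in C57BL/6ByJ. The ranges of all 3 strains overlapped, and the replicate 1 array was the highest of its strain each time. Its difference was -0.23 ± 0.182 (SE) for BALB/cJ against C57BL/6ByJ and -0.26 ± 0.182 for B6By.C.132.54 against C57BL/6ByJ (limma adjusted p = 0.908 and 0.915). The second probe set, 1456119_at, averaged 6.58 ± 0.123 in B6By.C.132.54, against 6.76 ± 0.156 in BALB/cJ and 6.87 ± 0.403 in C57BL/6ByJ (SD). Both probe sets thus had the order C57BL/6ByJ, BALB/cJ, B6By.C.132.54 from high to low, and the ranges of neighbours in that order overlapped in both. In 1456119_at the ranges of BALB/cJ and B6By.C.132.54 met only at 6.67. Their difference of -0.18 ± 0.173 (SE) was not called (limma adjusted p = 0.888). The correlation of the 2 probe sets over the 9 arrays was 0.411, across values that share arrays, pools and strains.

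Of the group II receptors, Grm2, an autoreceptor of glutamate terminals, measured 6.16, 6.36 and 6.39 in B6By.C.132.54, 6.22, 6.50 and 6.51 in BALB/cJ, and 6.25, 6.56 and 6.16 in C57BL/6ByJ. All 3 ranges overlapped, and the largest of its 3 differences was -0.10 ± 0.126 (SE) for B6By.C.132.54 against BALB/cJ (limma adjusted p = 0.912, 95% interval -0.38 to 0.17). Grm3, which neurons and astrocytes both express, measured 8.67, 8.85 and 8.61 in B6By.C.132.54, 8.50, 8.77 and 8.74 in BALB/cJ, and 8.83, 8.82 and 8.78 in C57BL/6ByJ. Every BALB/cJ array of Grm3 lay below every C57BL/6ByJ array, with a gap smaller than the spread inside BALB/cJ. The difference was -0.14 ± 0.1 (SE), and it was not called (limma adjusted p = 0.882; 0.656 with the replicate block). Arrays of B6By.C.132.54 overlapped both other strains.

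Of the group III receptors, Grm4 is best known from the parallel fibre terminals of cerebellar granule cells, a region removed from these samples. It measured 5.36, 5.39 and 5.40 in B6By.C.132.54, 5.68, 5.49 and 5.79 in BALB/cJ, and 5.08, 5.67 and 5.50 in C57BL/6ByJ. Each B6By.C.132.54 array lay below each BALB/cJ array, and the difference of -0.27 ± 0.14 (SE) was not called (limma adjusted p = 0.747; 0.496 with the replicate block). C57BL/6ByJ spread over both. Among the cerebellum markers, the granule cell gene Gabra6 averaged 3.24 over the 9 arrays and the Purkinje cell gene Pcp2 3.75, both below the median of all probe sets. Of the 6 cerebellum markers, Cbln1 (6.59) and Calb2 (8.20), which other brain regions express as well, were above that median, and none of the 6 was called between strains.

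Grm8, a group III receptor of nerve terminals, was read close to background, at 4.38, 4.44 and 4.38 in B6By.C.132.54, 4.24, 4.09 and 4.38 in BALB/cJ, and 4.23, 4.38 and 4.38 in C57BL/6ByJ. Of these 9 deposited values 5 shared an identical number with another array. The strains overlapped, and the largest difference was 0.16 ± 0.094 (SE) for B6By.C.132.54 against BALB/cJ (limma adjusted p = 0.782). Grm7, the other widespread group III receptor, was read by 3 probe sets, and neither of the brighter ones was called in any comparison. The dimmest, 1459532_at, averaged 3.24 in B6By.C.132.54, against 3.21 in BALB/cJ and 2.75 in C57BL/6ByJ, all below the median of all probe sets. Against C57BL/6ByJ it was not called in BALB/cJ (limma adjusted p = 0.173) unless the block was fitted (0.0348), and in B6By.C.132.54 it was not called either way (0.915, and 0.658 when blocked).

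**Figure D2:**
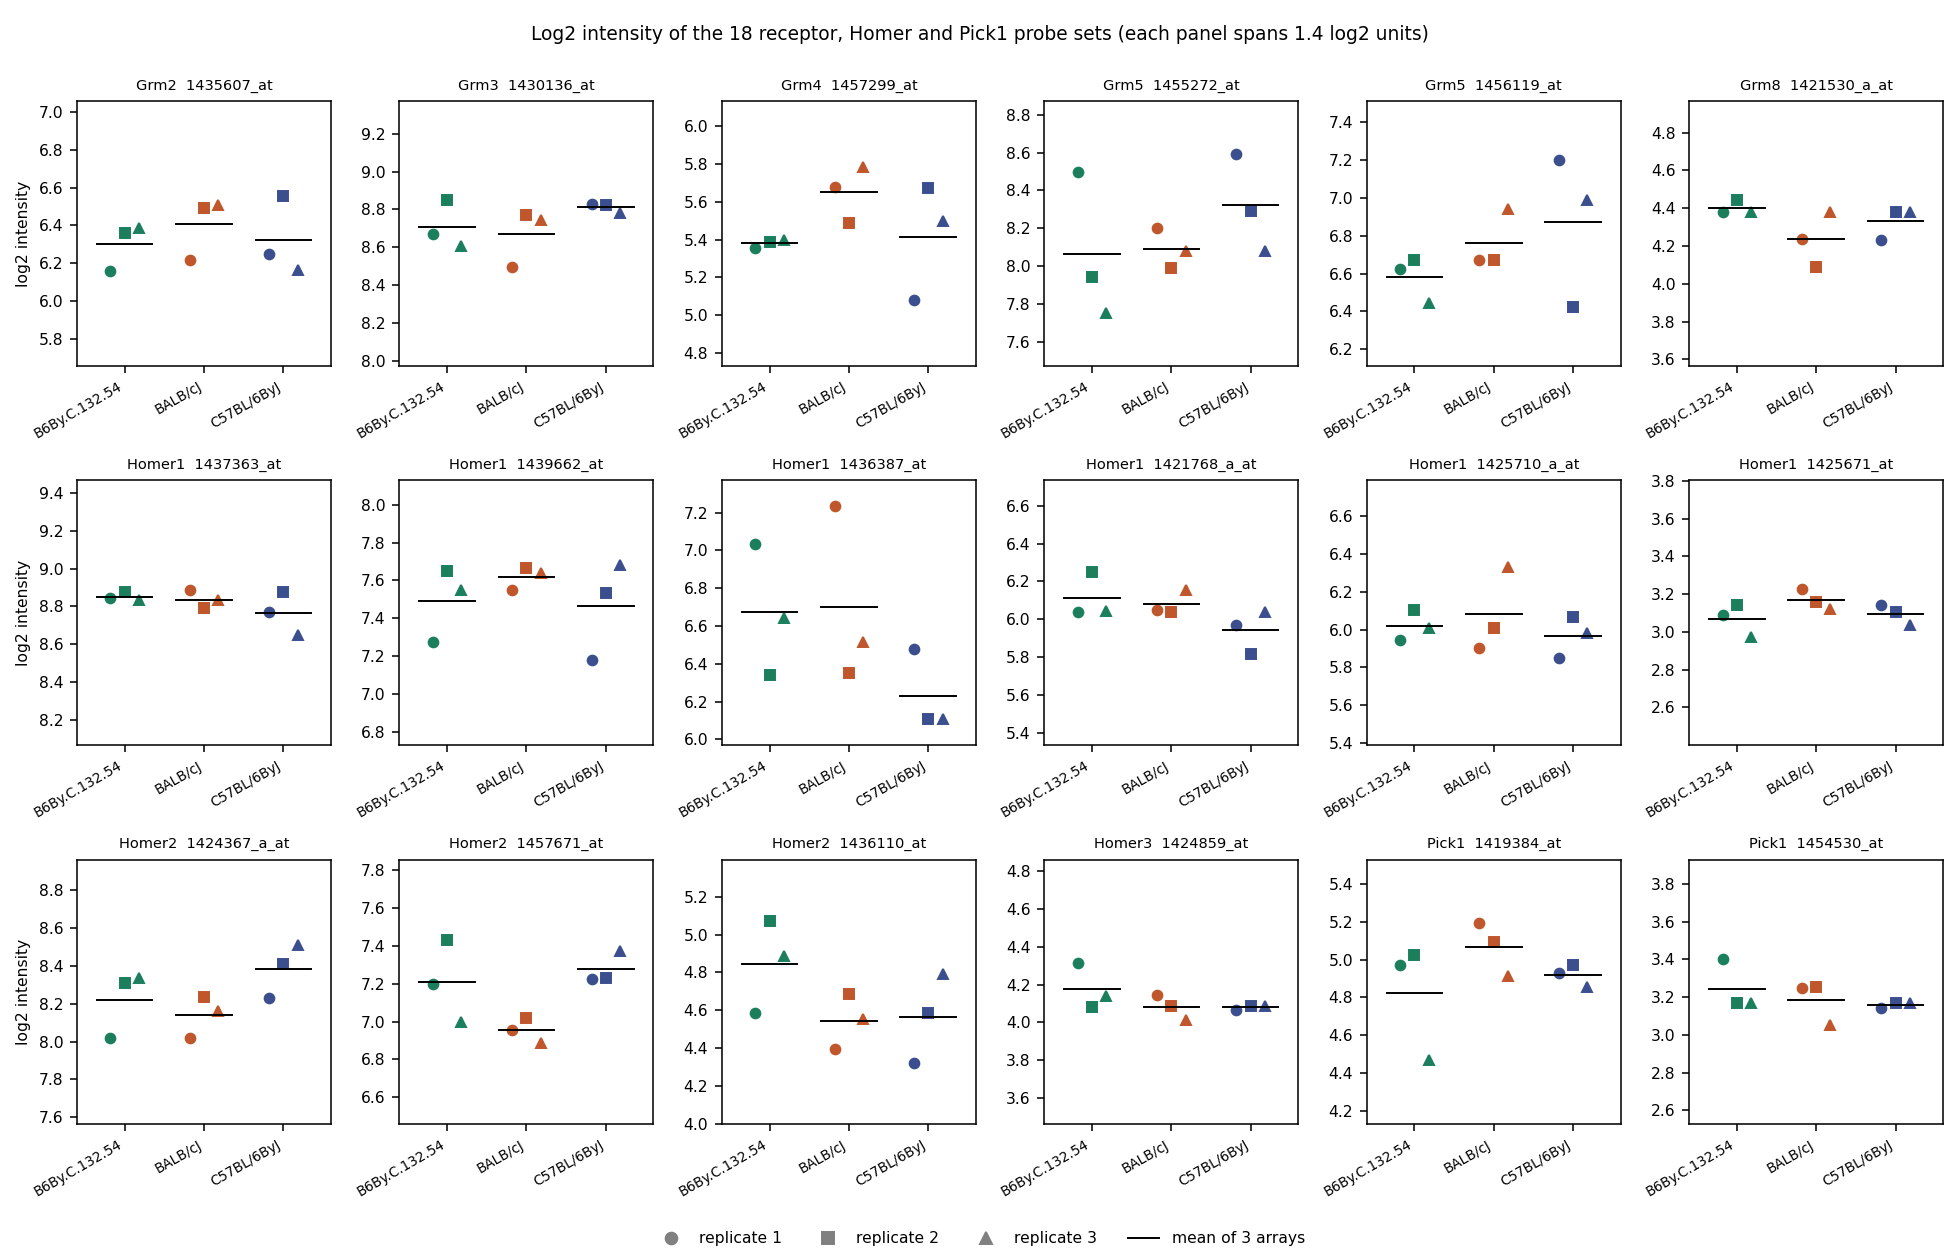
Log2 intensity (vertical axis, 1.4 log2 units in every panel) of the 18 probe sets on each array, by strain; symbols mark the replicate number and lines the mean of 3 arrays. The strains overlap in nearly every panel, and Homer1 1436387_at, where replicate 1 stands highest in each strain (7.03, 7.23 and 6.48), has the widest scatter.

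Homer1 (chromosome 13) was read by 6 probe sets. In all 6 the mean was higher in BALB/cJ than in C57BL/6ByJ, by 0.07 to 0.47 on the log2 scale, and none of these differences was called. Without BALB/cJ replicate 3 this held for 5 of 6. Over the whole table, 25321 of 45037 probe sets were higher in BALB/cJ than in C57BL/6ByJ. The mean of B6By.C.132.54 was also above that of C57BL/6ByJ in 5 of the 6 Homer1 probe sets, and below it in the other. Both comparisons use the same C57BL/6ByJ arrays. The 6 probe sets share their arrays and are not replicates of each other. Which of the short and long Homer1 forms each one reads was not analysed here, since no probe sequences were used. The brightest, 1437363_at, was also among the steadiest. It measured 8.85, 8.88 and 8.83 in B6By.C.132.54, 8.89, 8.79 and 8.83 in BALB/cJ, and 8.77, 8.88 and 8.65 in C57BL/6ByJ. Its 3 differences ran from 0.01 to 0.08 on the log2 scale, and no interval went beyond 0.27.

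The widest strain difference of the 18 probe sets, taken after the values were seen, was that of Homer1 1436387_at. It measured 7.03, 6.34 and 6.64 in B6By.C.132.54, 7.23, 6.35 and 6.52 in BALB/cJ, and 6.48, 6.11 and 6.11 in C57BL/6ByJ. The C57BL/6ByJ replicate 1 array reached into the range of both other strains, while C57BL/6ByJ was the lowest strain within each replicate number. Within replicate numbers 1, 2 and 3, BALB/cJ exceeded C57BL/6ByJ by 0.76, 0.24 and 0.41, and B6By.C.132.54 exceeded it by 0.55, 0.24 and 0.53. The mean differences were 0.47 ± 0.23 and 0.44 ± 0.23 (SE), with limma adjusted p = 0.716 and 0.915. When blocked by replicate number the adjusted p were 0.0557 and 0.658, so neither was called. B6By.C.132.54 and BALB/cJ differed by -0.03 ± 0.23 (interval -0.53 to 0.48).

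Of the remaining Homer1 probe sets, 1439662_at averaged 7.49 ± 0.194 in B6By.C.132.54, against 7.62 ± 0.0611 in BALB/cJ and 7.46 ± 0.258 in C57BL/6ByJ (SD). 1421768_a_at averaged 6.11 ± 0.121, 6.08 ± 0.0619 and 5.94 ± 0.114 in B6By.C.132.54, BALB/cJ and C57BL/6ByJ, and 1425710_a_at averaged 6.02 ± 0.0811, 6.08 ± 0.222 and 5.97 ± 0.109 in the same strains. The dim 1425671_at stayed between 2.98 and 3.23 on all arrays. Whether the probe sets of Homer1 differ from each other in their strain difference was not tested. Over the 9 arrays the 15 correlations between pairs of Homer1 probe sets ran from -0.376 to 0.573 with a median of 0.175, across values that share arrays, pools and strains.

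Homer2 (chromosome 7), a long form that stays able to link receptors, was read by 3 probe sets. The brightest, 1424367_a_at, measured 8.02, 8.31 and 8.34 in B6By.C.132.54, 8.02, 8.23 and 8.16 in BALB/cJ, and 8.23, 8.41 and 8.51 in C57BL/6ByJ. The highest BALB/cJ and the lowest C57BL/6ByJ array both stood at 8.23, and within replicate numbers 1, 2 and 3 the BALB/cJ arrays differed from C57BL/6ByJ by -0.21, -0.18 and -0.35. The difference of -0.24 ± 0.114 (SE) was not called (limma adjusted p = 0.682; 0.238 with the replicate block).

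The lowest F-test p of the 18 probe sets belonged to Homer2 1457671_at. It measured 7.20, 7.43 and 7.00 in B6By.C.132.54, 6.95, 7.02 and 6.88 in BALB/cJ, and 7.23, 7.23 and 7.37 in C57BL/6ByJ. All BALB/cJ arrays lay below all C57BL/6ByJ arrays, whereas B6By.C.132.54 overlapped both. BALB/cJ was lower than C57BL/6ByJ by -0.32 ± 0.111 (SE, interval -0.57 to -0.08; limma adjusted p = 0.384), a 1.25-fold difference. B6By.C.132.54 stood above BALB/cJ by 0.26 ± 0.111 (interval 0.01 to 0.50; limma adjusted p = 0.627) and differed from C57BL/6ByJ by -0.07 ± 0.111 (limma adjusted p = 0.947). These intervals are unadjusted, and neither difference passed the test across the table.

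The third Homer2 probe set, 1436110_at, had another order. It averaged 4.85 ± 0.246 in B6By.C.132.54, against 4.54 ± 0.144 in BALB/cJ and 4.57 ± 0.235 in C57BL/6ByJ (SD), with B6By.C.132.54 the highest within every replicate number. Its differences of B6By.C.132.54 from BALB/cJ and from C57BL/6ByJ were 0.30 ± 0.148 and 0.28 ± 0.148 (SE; limma adjusted p = 0.712 and 0.915; when blocked, 0.230 and 0.658). The 3 correlations between Homer2 probe sets over the 9 arrays ran from 0.424 to 0.525.

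Homer3 (chromosome 8), the Homer protein of Purkinje cells among other neurons, was read near background, at 4.31, 4.08 and 4.14 in B6By.C.132.54, 4.14, 4.08 and 4.01 in BALB/cJ, and 4.07, 4.09 and 4.09 in C57BL/6ByJ. Apart from the first B6By.C.132.54 array its values lay within a narrow band, and its differences did not exceed 0.10 ± 0.0869 (SE; limma adjusted p = 0.881 for B6By.C.132.54 against BALB/cJ).

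Pick1 (chromosome 15) was read by 2 probe sets. The brighter, 1419384_at, measured 4.97, 5.02 and 4.47 in B6By.C.132.54, 5.19, 5.09 and 4.91 in BALB/cJ, and 4.93, 4.97 and 4.86 in C57BL/6ByJ. The third B6By.C.132.54 array was the lowest of all 9 and the strains overlapped. B6By.C.132.54 differed from BALB/cJ by -0.25 ± 0.14 (SE; limma adjusted p = 0.782; 0.408 with the replicate block), and was below it within all 3 replicate numbers. The dim 1454530_at averaged 3.24 ± 0.136 in B6By.C.132.54, against 3.19 ± 0.114 in BALB/cJ and 3.16 ± 0.0137 in C57BL/6ByJ.

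Before adjustment the 18 probe sets passed p under 0.05 about as often as the whole table. For BALB/cJ against C57BL/6ByJ 1 of 18 did (all probe sets 7.58%), for B6By.C.132.54 against C57BL/6ByJ 0 of 18 (all 3.89%) and for B6By.C.132.54 against BALB/cJ 1 of 18 (all 7.5%). Both were Homer2 1457671_at. With the replicate block 3 of 18 passed in each comparison, where 10.9%, 7.44% and 11% of all probe sets did. They were probe sets of Homer1 and Homer2 (BALB/cJ against C57BL/6ByJ), of Grm5, Homer1 and Homer2 (B6By.C.132.54 against C57BL/6ByJ), and of Homer2 and Pick1 (B6By.C.132.54 against BALB/cJ).

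The arrays of 2 strains did not overlap for 2 of 18 probe sets between BALB/cJ and C57BL/6ByJ (Grm3 and Homer2 1457671_at; all probe sets 12.6%). This held for 0 of 18 between B6By.C.132.54 and C57BL/6ByJ (all 6.62%) and for 1 of 18, Grm4, between B6By.C.132.54 and BALB/cJ (all 9.51%). BALB/cJ was higher than C57BL/6ByJ in 10 probe sets and lower in 8, with a median difference of 0.05 on the log2 scale, beside 0.02 over all probe sets. The median size of that difference was 0.127 in the 18 and 0.0821 in all. For B6By.C.132.54 against C57BL/6ByJ the median size was 0.0910 in the 18 and 0.0854 in all. For B6By.C.132.54 against BALB/cJ it was 0.0992 and 0.0863.

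The scatter of the arrays was split between strain, replicate number and the rest. The share of each probe set's sum of squares over the 9 arrays that lay between replicate numbers was larger than that between strains for 11 of 18 probe sets (61.1%), near the 56.6% of all probe sets. The median shares were 41.7% between replicate numbers and 30.7% between strains in the 18, beside 30.3% and 23.1% in all probe sets. With 3 strains and 3 numbers the 2 shares have equal degrees of freedom. The largest share between replicate numbers was 63.6%, for Homer1 1439662_at, and the largest between strains was 60.1%, for Homer2 1457671_at.

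The direction of the replicate number differed between probe sets, also of 1 gene. Replicate 1 was the highest array of all 3 strains in Homer1 1436387_at and Grm5 1455272_at, by a mean deviation of 0.38 and 0.27 from the strain mean. It was the lowest of all 3 strains in Homer1 1439662_at (-0.19) and 1425710_a_at (-0.12) and in Homer2 1424367_a_at (-0.16) and 1436110_at (-0.22). The design text describes 3 batches that each held all strains; whether the replicate numbers stand for these batches is not stated.

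**Figure D3:**
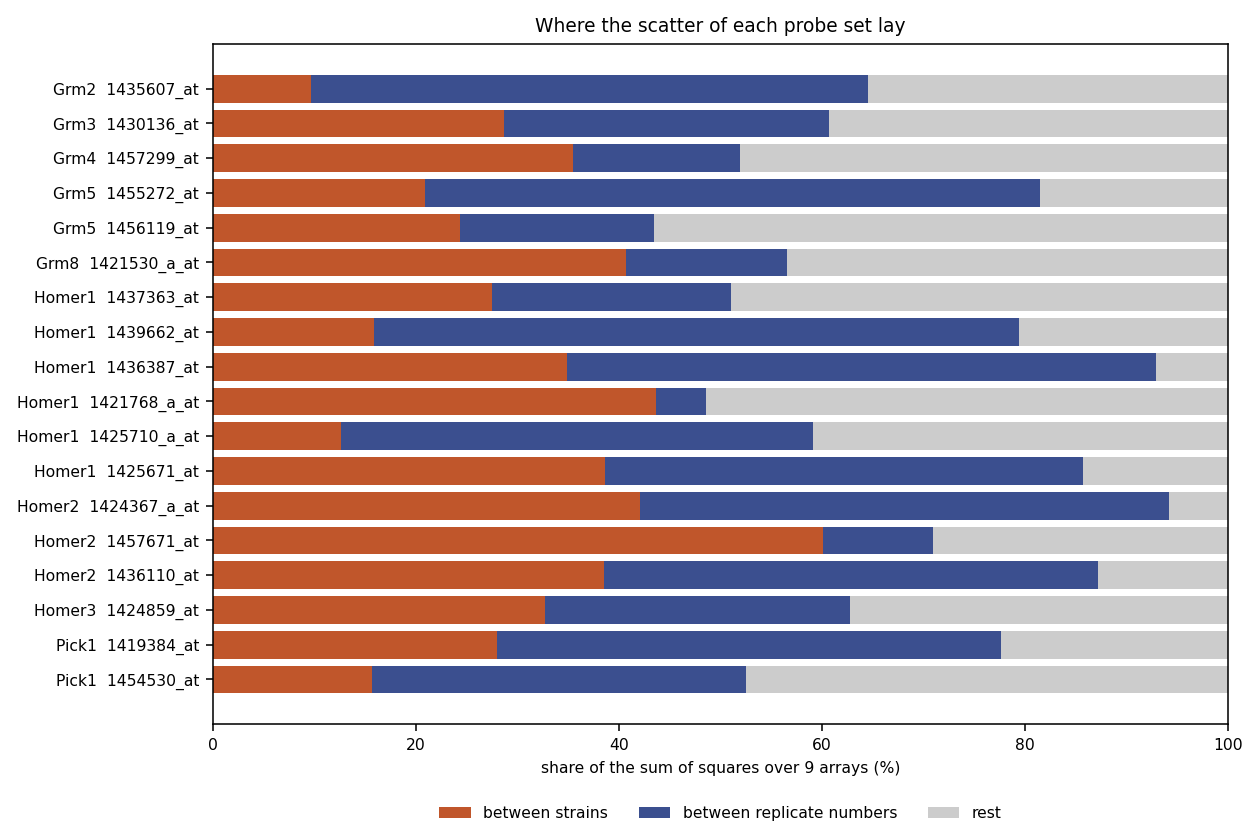
Share of the sum of squares over 9 arrays (horizontal axis, %) that lay between strains, between replicate numbers and in the rest, for each of the 18 probe sets. The replicate number took the larger share in 11 of 18 (61.1%, beside 56.6% of all probe sets), up to 63.6% in Homer1 1439662_at, and the strain took 60.1% in Homer2 1457671_at.

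By the likeness rule, 5 genes followed Homer2 1457671_at most closely over the 9 arrays among 19406 probe sets at or above the median with 1 gene. These were Ppm1h (r = 0.960), Spire1 (0.957), Pggt1b (0.944), Snrpa1 (0.939) and Naaa (0.939). The arrays share pools, strains and replicate numbers. These r values were picked as the highest of 19406 over only 9 arrays, so they are a description and carry no test. None of the 5 was called between any strains, and Naaa came nearest (limma adjusted p = 0.117 for BALB/cJ against C57BL/6ByJ).

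Of 51 other genes in the signalling of these receptors, 43 were measured, by 111 probe sets. They cover other receptors, G proteins, effectors, adenylyl cyclases, Homer-bound scaffolds, adaptors and dendritic translation genes. Between BALB/cJ and C57BL/6ByJ 1 of 111 probe sets was called lower and 0 higher (3 called with the replicate block), between B6By.C.132.54 and BALB/cJ 1 was called higher and 0 lower, and between B6By.C.132.54 and C57BL/6ByJ 0 were called. Without the block, the shares of all probe sets called in these comparisons were 1.43%, 1.28% and 0%; with it, the share for BALB/cJ against C57BL/6ByJ was 2.12%. The median difference of the list was -0.01, -0.05 and -0.06 on the log2 scale in these 3 comparisons, where all probe sets had 0.02, -0.02 and -0.01. For B6By.C.132.54 against C57BL/6ByJ the lowest p of the list was that of the dim Grm7 1459532_at (limma unadjusted p = 0.00279, adjusted p = 0.915). In both other comparisons it was that of Prkca 1437393_at.

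The called probe set read Prkca (chromosome 11), which encodes protein kinase C alpha, the kinase that Pick1 binds. Its probe set 1437393_at measured 8.66, 8.71 and 8.63 in B6By.C.132.54, 8.14, 8.28 and 8.14 in BALB/cJ, and 8.63, 8.77 and 8.68 in C57BL/6ByJ. All BALB/cJ arrays lay below all other arrays, and B6By.C.132.54 overlapped C57BL/6ByJ. The signal of this probe set was lower in BALB/cJ than in C57BL/6ByJ by 0.51 ± 0.083 (SE) on the log2 scale, or 1.42-fold (limma adjusted p = 0.0100). It was 1.39-fold higher in B6By.C.132.54 than in BALB/cJ (limma adjusted p = 0.0154). The BALB/cJ and C57BL/6ByJ call did not hold once BALB/cJ replicate 1 or 3 or C57BL/6ByJ replicate 2 was left out (adjusted p = 0.0527, 0.0525 and 0.0639). The call against B6By.C.132.54 was lost without B6By.C.132.54 replicate 1 or 2 or BALB/cJ replicate 1 or 3 (0.0558, 0.0582, 0.0762 and 0.0768) and with only the 6 arrays of these strains (0.0617).

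Neither other Prkca probe set showed a difference of that size. 1450945_at averaged 5.70 ± 0.198 in B6By.C.132.54, against 5.63 ± 0.0216 in BALB/cJ and 5.72 ± 0.117 in C57BL/6ByJ. The dimmest, 1427562_a_at, averaged 4.17 ± 0.165, 4.17 ± 0.102 and 4.16 ± 0.146 in the same strains (SD). Whether the Prkca probe sets differ from each other was not tested. With the replicate block, the probe sets called between BALB/cJ and C57BL/6ByJ were this one, the dim Grm7 probe set above and 1446265_at of Dnm3, a dynamin that binds Homer. Dnm3 1446265_at averaged 6.43 in B6By.C.132.54, against 5.49 in BALB/cJ and 6.55 in C57BL/6ByJ (BALB/cJ against C57BL/6ByJ: limma adjusted p = 0.112, and 0.0452 when blocked). The other 4 Dnm3 probe sets were not called in any comparison with either fit. Between BALB/cJ and C57BL/6ByJ the brightest, 1436624_at, differed by -0.01 on the log2 scale. In the same comparison 1425403_at, 1436875_at and 1438801_at differed by -0.40, -0.22 and -0.45.

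A few cell type markers were called between strains too. Of 8 neuron markers 1 was, Slc17a7 (7.43 to 8.21 in B6By.C.132.54, 6.25 to 6.77 in BALB/cJ, 7.81 to 8.17 in C57BL/6ByJ), and of 6 astrocyte markers 1 was, Gfap (7.24 to 7.47, 7.99 to 8.09 and 6.96 to 7.47 in the same strains). Among 6 microglia markers this held for C1qb and among 4 endothelium markers for Cldn5, both lowest in BALB/cJ. BALB/cJ stood apart in Slc17a7 and Gfap as it did in Prkca, and the part of these markers in the Prkca difference was not tested.

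**Figure D4:**
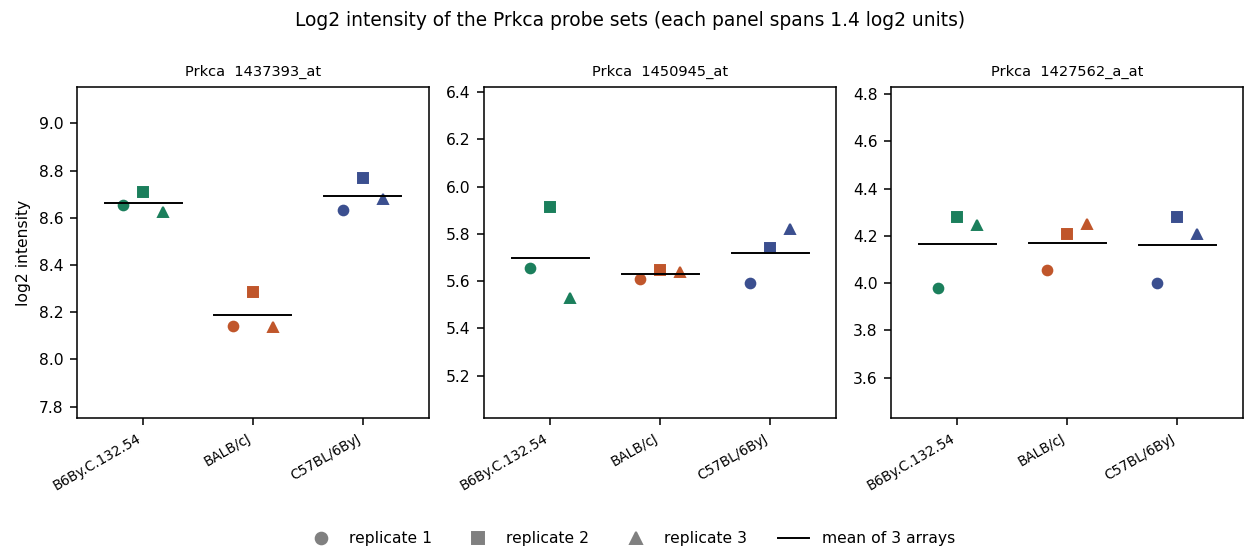
Log2 intensity (vertical axis, 1.4 log2 units in every panel) of the 3 Prkca probe sets on each array, by strain; symbols mark the replicate number and lines the mean of 3 arrays. In 1437393_at the BALB/cJ arrays (8.14 to 8.28) lie below the others, and in the other two probe sets the strains overlap.

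The labelled tissue was checked against its markers. All 8 neuron, 6 astrocyte, 5 measured oligodendrocyte and 4 striatum markers lay above the median of all probe sets, while both measured retina markers lay below it. All 6 microglia, 4 endothelium and 4 choroid plexus markers lay above it as well. Other classes were mixed: 2 of 3 hippocampus, 2 of 3 olfactory bulb and 1 of 2 measured blood markers lay above it. The hippocampus marker Prox1 averaged 3.20, below the median. Array medians ran from 15.49 to 15.99 in intensity. The mean correlation of an array with the others of its strain was lower in B6By.C.132.54 (0.988 to 0.991) than in BALB/cJ and C57BL/6ByJ (0.993 to 0.995). The array B6By.C.132.54 replicate 3 had the narrowest interquartile range, 2.73 on the log2 scale beside 2.84 to 2.98 on the others. Without that array the counts of called receptor, Homer and Pick1 probe sets were also 0.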

How the data were processed

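Total RNA of 10 pooled hemispheres per array was labelled and hybridised to Affymetrix mouse whole-genome arrays, per the labels' protocols. What the authors deposited is a linear signal intensity for each probe set; GCOS and RMA are the tools in the submitters' processing notes, with no version or order, and how background was treated is not given in the sources used here. Of 45101 probe sets 64 controls were left out. The deposited intensity was converted to log2 as it stood, without a pseudocount or another normalization. Platform annotation named 34945 probe sets with 1 gene, 932 with several and 9160 with none; symbols and chromosomes came from RefSeq (GRCm38.p6) by Entrez identifier, which matched 34741. No coordinates are given because the array table names no build.

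A model with a mean for each strain was fitted over the 9 arrays in limma 3.58.1 in R 4.3.3 (lmFit, eBayes; 6 residual and 4.82 prior degrees of freedom), two-sided, adjusted over 45037 probe sets. The fit was tested on simulated data with noise independent between arrays. That test does not cover arrays that deviate together by replicate number. Arrays are the replicates, and their number limits the precision; p-values measure the spread between pools, not between mice. Arrays of the same replicate number deviated together: the 9 correlations of their deviations from strain means ran from 0.147 to 0.542, so a fit with the replicate number as a block was run too. Every probe set of the 9 genes is named, with array values for the brightest of each gene; from the signalling list, called genes and the lowest p per comparison are named. Array values of Homer1 1436387_at, Homer2 1457671_at and Prkca, and Dnm3 as a gene, were added after their values were seen. Likeness was ranked by Pearson correlation with the probe set of lowest F-test p. The genes, lists and tests were chosen with earlier results of these data known. Alternatives were quantile normalization, median centring, a filter on dim probe sets, log2(intensity + 16), an intensity trend, array weights, 6-array fits and leaving out each array.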

Additional observations from a re-analysis of the deposited data

How the results depend on the processing

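The count of receptor, Homer and Pick1 probe sets called was 0 in each of the 3 comparisons, and by the F-test, under every alternative run: the replicate block, quantile normalization, median centring, the filter on dim probe sets, log2(intensity + 16), the intensity trend, array weights, fits of 6 arrays (not for the F-test) and leaving out each of the 9 arrays (0 to 0). Over 912 recomputed differences of the 18 probe sets none was called, the lowest adjusted p was 0.0557 (Homer1 1436387_at with the replicate block), and 41 changed sign, none of them called; 1 moved by more than the spread between arrays (Homer1 1437363_at in B6By.C.132.54 against C57BL/6ByJ, 0.17 after quantile normalization and 0.08 before). The count over all probe sets ranged from 410 (without C57BL/6ByJ replicate 2) to 706 when arrays were left out for BALB/cJ against C57BL/6ByJ (644 with all, 953 with the replicate block), and from 391 to 514 for B6By.C.132.54 against BALB/cJ (575 with all, 834 with the block); it stayed at 0 for B6By.C.132.54 against C57BL/6ByJ. In the signalling list the count for BALB/cJ against C57BL/6ByJ was 3 with the replicate block, 2 with array weights and 0 to 2 without single arrays; for B6By.C.132.54 against BALB/cJ it was 0 with only the 6 arrays of these strains and 0 to 1 without single arrays. Most alternatives for the signalling list and for single probe sets beyond the brightest were chosen after seeing the data. Apart from Grm7 1459532_at and Dnm3 1446265_at the replicate block changed no call of a gene named in the report. The Prkca 1437393_at difference between BALB/cJ and C57BL/6ByJ kept its sign under all 17 alternatives (-0.56 to -0.47). The cause of these changes was not tested. Signals near background limit what Grm8, Homer3 and the dim Homer1 and Pick1 probe sets can show.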

Other observations

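Identical deposited values recurred among the receptor and Homer probe sets as in the whole table: 12 of 18 showed the same number on more than 1 array, beside 61.5% of all probe sets. The 0.0137 SD of Pick1 1454530_at in C57BL/6ByJ and the 0.0127 SD of Homer3 in the same strain come with such repeats, with 4 and 2 of the 9 values shared.

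Within arrays of the same replicate number, the sign of the difference was the same in all 3 numbers for 7 of 18 probe sets in BALB/cJ against C57BL/6ByJ, 6 of 18 in B6By.C.132.54 against C57BL/6ByJ and 7 of 18 in B6By.C.132.54 against BALB/cJ, where 32.7%, 26.2% and 27.6% of all probe sets had this.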
